A study of Mus musculus with 8 samples.

Results

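Chromatin accessibility was examined at 10 genes that serve the display of peptides on MHC class I molecules or the thymic processing of self-proteins. The genes are Psmb8, Psmb9, Psmb10 and Psmb11 of the proteasome, the peptide transporter genes Tap1 and Tap2, the transcriptional regulator Nlrc5, the MHC class I light chain B2m and the protease genes Prss16 and Ctsl. The regions described are those of the consensus set of accessible regions that overlapped a gene body or the 10 kb on either side of it in the mm10 genome. A region close to several of these genes was counted once, for the gene with the nearer transcription start. By this rule 27 of 57124 regions were found, covering 9336 bases, and 5 of the 27 lay in the loci of more than 1 gene.

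The regions come from ATAC-seq, in which a transposase cuts open chromatin, of medullary thymic epithelial cells (mTECs) from wild-type mice of 4 to 6 weeks of age. The cells were sorted as CD45-negative, EpCAM-positive and CDR1-negative, so that haematopoietic and cortical epithelial cells were depleted. The labels list 8 samples, 2 biological replicates each of Tspan8neg MHCIIlow, Tspan8neg MHCIIhigh, Tspan8pos MHCIIlow and Tspan8pos MHCIIhigh cells. MHCIIlow gates hold immature cells together with late cells that have lost MHC class II. The regions were merged over the samples and the 8 columns of read counts carry names that match no label, so that no value here belongs to a single group, no depth per sample is given and no comparison of the groups was made.

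Cells degrade cytosolic proteins in the proteasome. Interferon exchanges its constitutive catalytic subunits for the immunosubunits encoded by Psmb8, Psmb9 and Psmb10, while cortical thymic epithelial cells use a thymus-specific subunit, encoded by Psmb11. The peptides enter the endoplasmic reticulum through the TAP1 and TAP2 transporter and are loaded onto MHC class I heavy chains paired with beta-2-microglobulin. NLRC5 activates MHC class I genes through a promoter module with a CRE-like X2 box and a CCAAT-containing Y box. PRSS16, the thymus-specific serine protease, and cathepsin L, encoded by Ctsl, are known from cortical epithelium, where they take part in selecting CD4 T cells.

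Promoter regions of marker genes were looked up as a check of the labelled cell type. A region was called a promoter region when its centre lay between 1000 bases before and 100 bases after an annotated start. By this rule 48.6% of all protein-coding genes had one. Of 10 markers of mTECs, 9 had one, and the exception was Fezf2, with a region 115 bases past its start. The 9 were Epcam, Krt5, Krt14, Krt8, Foxn1, Cldn4, Aire, Cd80 and Ly6d. Not all of them separate medullary from cortical cells, since the paper gates thymic epithelial cells as a whole on EpCAM and Foxn1 is in both lists. Of 9 thymocyte markers, 0 had one, and of 4 fibroblast and endothelial markers likewise 0, although the start of Pdgfra lay inside a region. Of 9 markers of cortical epithelium, 5 had one. These were Foxn1, which is also in the mTEC list, Ly75, Cxcl12 and the described genes Prss16 and Ctsl. Psmb11, Dll4, Cd83 and Enpep had none, although the start of Dll4 lay inside a region centred 129 bases past it. How far cortical cells took part in these regions was not tested.

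Among the 27 regions, 9 held the interferon-stimulated response element, GAAA followed by any 2 bases and GAAA again, which binds interferon regulatory factors. These elements are shown first because several lay close to an annotated start of an antigen processing gene, at distances that depend on the start chosen. Each line gives 10 bases on either side of the element, on the strand that reads GAAA, from mm10, and the capitals mark the element.

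Psmb8, chr17:34198335-34198364, minus strand: acaaggaagtGAAAGCGAAAgccacagtac

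Psmb10, chr8:105938109-105938138, minus strand: gggtgggggtGAAAGCGAAAgtaggaagcg

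Tap2, chr17:34204491-34204520, plus strand: gcagtgaagtGAAAGCGAAAgccgcgggac

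Prss16, 5' flank, chr13:22015619-22015648, minus strand: acagacaccgGAAAGCGAAAggacatttca

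Psmb9 and Tap1, chr17:34187688-34187717, minus strand: agaggaagaaGAAACCGAAAgccgacctcg

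Nlrc5, first start, chr8:94434383-94434412, minus strand: gcgctctgtgGAAACTGAAAgtggccactg

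B2m, chr2:122147538-122147567, plus strand: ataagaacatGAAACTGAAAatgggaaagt

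Tap2, 3' flank, chr17:34218938-34218967, plus strand: cccattctagGAAACAGAAAcctagccgtt

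Nlrc5, intron, chr8:94516999-94517028, minus strand: tattaaaaaaGAAAAGGAAAaaggaaaaag

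The 10 letters GAAAGCGAAA were found in 4 of the 27 regions, at Psmb8, Psmb10, Tap2 and Prss16, and in 71 of all 57124 regions (0.124%). GAAACTGAAA was found in 2 of the 27, the promoter regions of Nlrc5 and B2m, and in 0.434% of all regions. The GAAACCGAAA of the Psmb9 and Tap1 region occurred in 0.126% of all regions. These exact forms were read from the 27 regions themselves, so their low shares over all regions are descriptions only. The element in the intron of Nlrc5 lies in a run that is mostly A.

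Any form of the element was held by 9 of the 27 regions, or 33.3%, compared with 3.47% of all regions. The share with the element rose with the width of the region, and the counts are therefore given by width. Below 200 bases 2 of 13 regions held it, where 1.91% of all regions of that width did. From 200 to 399 bases it was 2 of 6, against 4.08%. From 400 to 799 bases it was 4 of 5, against 5.29%, and at 800 bases or more 1 of 3, against 7.13%. Among promoter regions of the 10 genes, 3 of 6 held it (Tap1, Nlrc5 and B2m), and the share over all promoter regions was 3.94%. These are descriptions of matching letters, for genes many of which are known to respond to interferon, and no test was made of the difference.

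**Figure D1:**
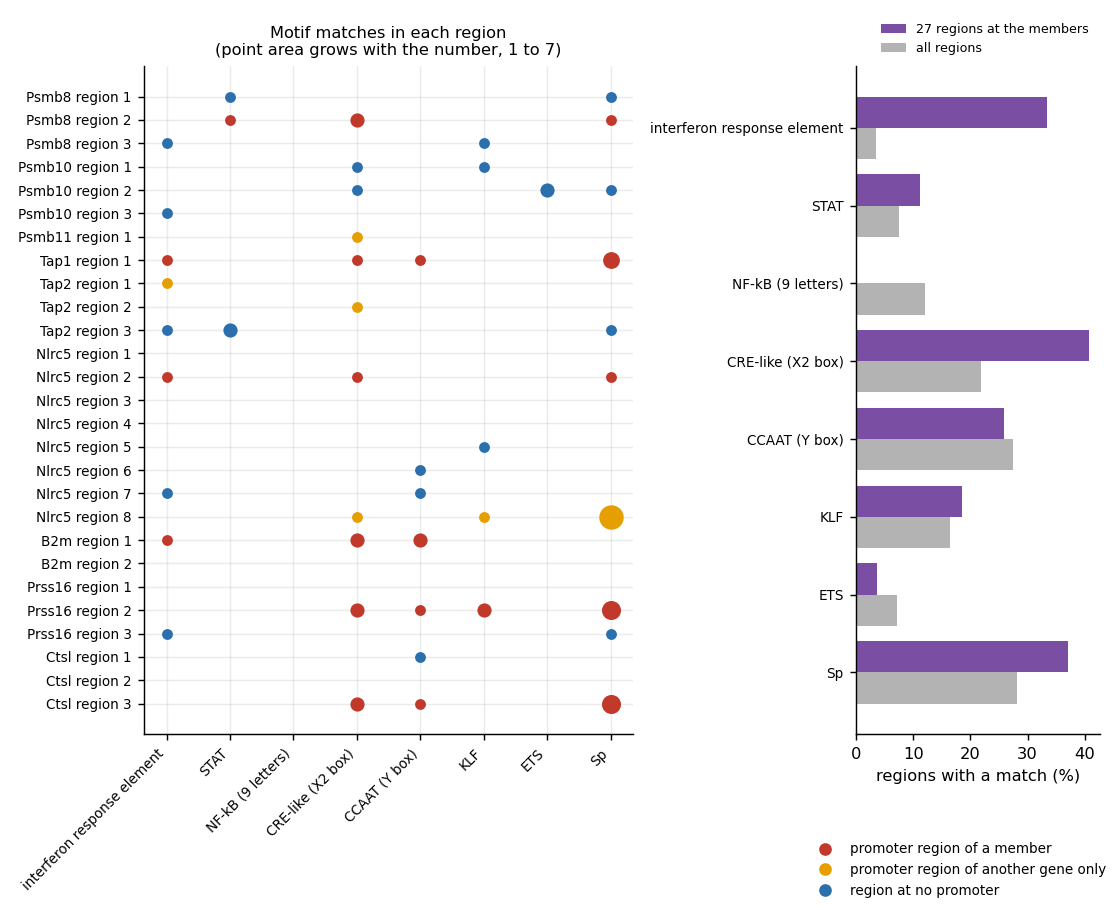
Left, matches of 8 short motifs in each of the 27 regions, 1 row per region, with regions numbered by position along the chromosome and point area growing with the number of matches. Right, the percent of regions with a match for the 27 regions and for all 57124 regions; the interferon response element was in 33.3% and 3.47%, and the empty NF-kB row is for a 9-letter pattern that is 1 base shorter than the full kappa-B consensus.

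By the centre of the region, 6 of the 10 genes had a promoter region, namely Psmb8, Tap1, Nlrc5, B2m, Prss16 and Ctsl. The share over all 21938 protein-coding genes was 48.6%. Psmb9 was not among them only because of the centre rule. Its start lay inside the region shared with Tap1, and 7 of 10 genes had a start inside a region, compared with 56.4% of protein-coding genes. Psmb10, with 284 bases from its start to the nearest edge, and Tap2, with 896 bases, had regions just inside the gene. Psmb11 had none within 7175 bases of its start. The starts in use are those of the basic annotation, and other annotated starts are considered gene by gene.

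**Figure D2:**
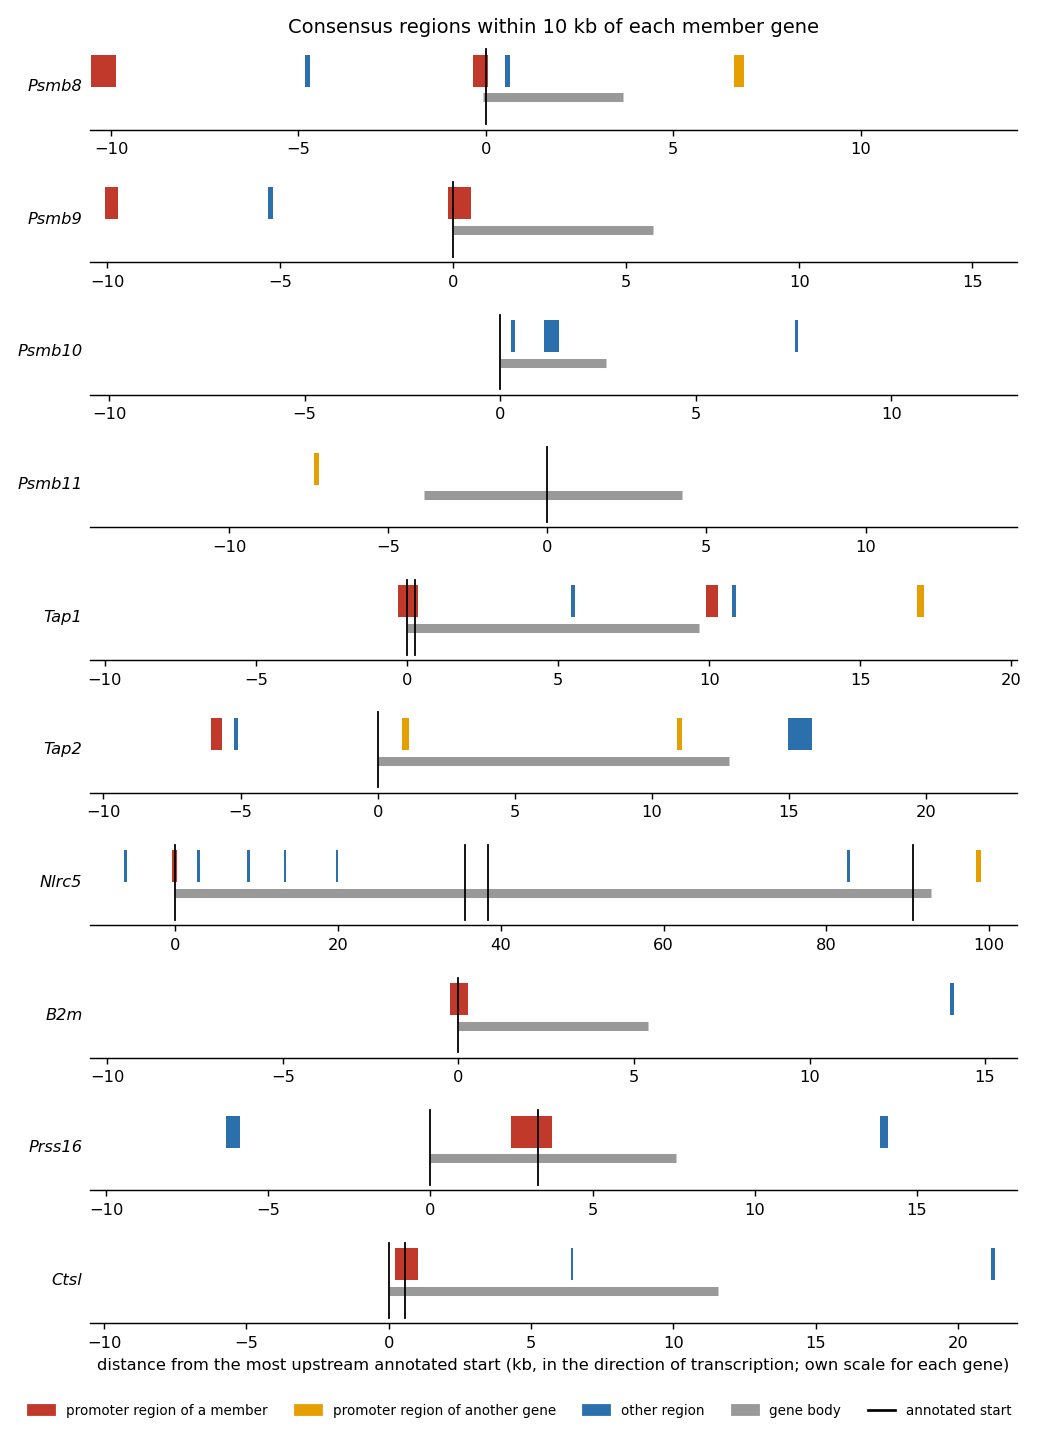
Consensus regions (boxes) along the 10 genes and the 10 kb on either side, with distance in kb from the most upstream start in the direction of transcription on a scale of its own for each gene, and narrow regions drawn at a minimum width so that they can be seen and the leftmost region of Psmb8 cut by the axis. Regions cover a start (vertical line) in 7 genes, the region of Prss16 lies at the internal start, and the only region in the locus of Psmb11 is the promoter region of its neighbour Psmb5.

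The immunosubunit genes Psmb8 and Psmb9 lie beside Tap1 and Tap2 on chromosome 17, and 7 of the 27 regions were in this cluster. Psmb9 and Tap1 are transcribed away from each other and shared a single region of 661 bases, from 34187250 to 34187910. Its centre was 27 bases past the first start of Tap1 and 184 bases past the start of Psmb9, so that it was counted for Tap1 and left Psmb9 with 0 regions of its own. It overlapped exons, UTR and coding sequence of both genes. In the comprehensive annotation it covered 4 of 7 starts of Psmb9. The RefSeq starts of Psmb9 and Tap1 were both inside it as well.

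Next to the element shown above, this shared region held TGACG, the core of the CRE-like X2 box, and CCAAT, the core of the Y box. The centre of the interferon element was 26 bases before a comprehensive start of Tap1, on the opposite strand. TGACG began 83 bases and CCAAT 219 bases before the first basic start of Tap1. Both sites are printed with 30 bases, on the plus strand, with the motif in capitals. The names X2 and Y stand for matching letters only. TGACG was in 42.5% of all promoter regions and CCAAT in 42.6%. The shared region did not hold them as the spaced pair that is searched below.

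Tap1 and Psmb9, X2 core, chr17:34187458-34187487: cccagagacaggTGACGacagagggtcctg

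Tap1 and Psmb9, Y core, chr17:34187322-34187351: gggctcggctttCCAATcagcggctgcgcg

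Psmb8 encodes the immunosubunit that takes the place of the constitutive Psmb5 subunit. Its promoter region was 394 bases wide, from 34197445 to 34197838, and its centre was 149 bases before the basic start. It was narrower than the median promoter region, with 38.2% of all promoter regions narrower still. TGACG matched on both strands in overlapping position, giving the palindrome TGACGTCA, the full cyclic AMP response element.

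Psmb8, chr17:34197649-34197678, plus strand: gggcccggtgtgTGACGTCAgcagttcctg

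A second region of Psmb8, 142 bases wide, followed 581 bases past the basic start, from 34198301 to 34198442, across UTR and coding exon sequence. It held the interferon element. In the comprehensive annotation 2 further starts of Psmb8 lie inside it, and the element was centred 21 bases before the nearer of them. The RefSeq start of Psmb8 lay in neither region, 106 bases from the edge of the second. Another region of 145 bases was counted for Psmb8 by distance, at 4754 bases before its start, but lies within Tap1.

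Psmb10, which encodes the remaining immunosubunit, is on chromosome 8. The 250 bases before its basic start had 0 bases in a region and held none of the interferon, CCAAT, Sp, TGACG and STAT motifs. A region of 104 bases, from 105938057 to 105938160, was centred 336 bases past that start and carried the interferon element. There, too, comprehensive starts lay inside the region, and the element was centred 19 bases before the nearest. In all, 5 of 7 comprehensive starts of Psmb10 were inside a region. The other 3 of these 5 lay in a region of 365 bases from 105936949 to 105937313, across an intron and coding exons, which was wider than 81.1% of regions at no promoter. This was the only 1 of the 27 regions with the ETS motif CCGGAAG, which it held at both of the sites in capitals below, together with TGACG (on the opposite strand, as CGTCA).

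Psmb10, chr8:105937055-105937144, minus strand: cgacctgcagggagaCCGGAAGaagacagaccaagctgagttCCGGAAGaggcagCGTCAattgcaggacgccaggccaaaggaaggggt

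The peptide transporter gene Tap2 had no region at its basic start. A region of 252 bases from 34204423 to 34204674 was centred 1021 bases past it, in the UTR of Tap2 and in the promoter window of the noncoding gene model Gm20496. A comprehensive start of Tap2 was inside it, and the interferon element was centred 62 bases before that start. Thus at Psmb8, Psmb10, Tap1 and Tap2 an element lay within 62 bases before an annotated start that the basic set leaves out. Each such start was picked as the nearest of 6, 7, 7 and 5 comprehensive starts, in that order. From the basic starts the elements of Psmb8, Psmb10 and Tap2 were centred 559, 321 and 978 bases past, and that of Tap1 100 bases before. How often an element lies this close to any comprehensive start was not tested. With the comprehensive set 9 of 10 genes had a promoter region by the centre rule, all except Psmb11. The share over all protein-coding genes with that set is not given here, so the rise from the basic set cannot be judged.

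Downstream of Tap2 a region of 860 bases from 34218491 to 34219350 overlapped no annotated gene. It was wider than 98.0% of regions at no promoter and the widest of the 17 such regions described here. Its centre was 15393 bases past the start of Tap2. The interferon element there overlapped a match of the STAT motif TTCNNNGAA, and a second STAT match followed, both in the printed stretch.

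Tap2, 3' flank, chr17:34218923-34218982, plus strand: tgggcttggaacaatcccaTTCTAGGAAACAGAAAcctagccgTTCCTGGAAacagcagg

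The thymus-specific subunit gene Psmb11, on chromosome 14, had no promoter region in the basic or the comprehensive annotation, and 0 of its 2 comprehensive starts was in a region. The only region in its locus was 169 bases wide, from 54617967 to 54618135, and was centred 7259 bases before the basic start. Its edge was 3298 bases from the other comprehensive start. This region was the promoter region of Psmb5, the neighbouring gene for the constitutive subunit. The single region of the Psmb11 locus compares with a median of 2 regions per locus over protein-coding genes (quartiles 1 and 3), and 22.3% of these genes had none. The absence of a called region does not show that the Psmb11 promoter was closed in every cell.

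The constitutive catalytic subunits were looked up beside the immunosubunits. Psmb5 had this region of 169 bases, Psmb6 a promoter region of 330 bases, and Psmb7 a region of 399 bases centred 235 bases past its start, outside the promoter window. The interferon element was in 0 of these 3 regions, while Psmb8, Psmb9 and Psmb10 each had it in a region within the gene. The search was not alike for both sides. For each constitutive gene only the region nearest the start was looked up. The Psmb5 locus held 2 regions and that of Psmb7 held 6. For Psmb8 the element was in its second region and not in its promoter region.

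Nlrc5, on chromosome 8, had the most regions. The gene body and its flanks span 112.9 kb, compared with a median of 37.4 kb, and held 8 regions, more than 95.0% of protein-coding genes. The promoter region of 644 bases, from 94433904 to 94434547, covered the first start, and the interferon element was centred 6 bases past this start. The printed stretch holds the 250 bases before the start, all of them inside the region, and none of the interferon, CCAAT, Sp, TGACG and STAT motifs matched in it.

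Nlrc5, chr8:94434141-94434390, plus strand: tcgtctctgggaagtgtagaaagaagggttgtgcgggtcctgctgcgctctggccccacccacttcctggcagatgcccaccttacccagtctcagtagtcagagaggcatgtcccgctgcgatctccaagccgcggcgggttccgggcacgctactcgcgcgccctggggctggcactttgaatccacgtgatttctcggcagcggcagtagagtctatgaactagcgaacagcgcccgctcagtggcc

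The other 3 basic starts of Nlrc5 were 7748, 15811 and 18564 bases from the edge of the nearest region. Introns of the gene held 5 regions, between 123 and 371 bases wide. The widest of these, from 94516903 to 94517273, held an interferon element and CCAAT. The last region of the locus, 600 bases wide with a GC content of 77.7%, was the promoter region of Cpne2.

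B2m, on chromosome 2, had a promoter region of 511 bases from 122147436 to 122147946. Its centre was 5 bases past the only annotated start, the closest of the 6 promoter regions, and it overlapped UTR and coding exon sequence and an intron of Patl2. The 250 bases before the start carried the interferon element, TGACG and ATTGG, the reverse complement of CCAAT, in this order, at 138, 77 and 52 bases before the start. They are in capitals in the promoter sequence.

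B2m, chr2:122147436-122147685, plus strand: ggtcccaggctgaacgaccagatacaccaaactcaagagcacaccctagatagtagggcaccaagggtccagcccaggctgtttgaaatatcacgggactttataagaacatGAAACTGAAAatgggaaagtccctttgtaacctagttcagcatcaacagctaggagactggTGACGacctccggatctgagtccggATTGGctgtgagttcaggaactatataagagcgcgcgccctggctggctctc

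TGACG and ATTGG on the same strand, with their first bases 20 to 30 apart, were then searched in all regions, a spacing chosen after the B2m sequence had been seen. Of the 27 regions, B2m alone had the pair, with 25 bases. Over all promoter regions 0.880% had it. Of the regions within 1000 bases of a start of 24 other pathway genes, those of H2-K1 and H2-D1 had it, again with 25 bases. Both encode MHC class I heavy chains, and as related copies they do not count as independent of each other. The heavy chain genes H2-Q4 and H2-T23 had 2 such regions each, and 0 of these had the pair. The pair began at position -77 from the start in B2m, at -41 in H2-K1 and 263 bases past the basic start in H2-D1. The 3 stretches run from TGACG to ATTGG.

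B2m, chr2:122147609-122147638, plus strand: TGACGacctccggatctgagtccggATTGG

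H2-K1, chr17:34000359-34000388, minus strand: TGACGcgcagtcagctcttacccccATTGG

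H2-D1, chr17:35262993-35263022, plus strand: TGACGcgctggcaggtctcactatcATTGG

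In windows of equal length, 250 bases before to 50 bases after RefSeq starts, 7 of the 10 genes had an entry. B2m was the only 1 of them with the interferon element, which 3.44% of 32851 RefSeq windows held. TGACG was in the windows of Psmb9, Tap1 and B2m, against 20.8% of all windows. CCAAT was in those of Psmb9, Psmb11, Tap1 and B2m, against 37.4%. The windows of Psmb9 and Tap1 overlap and hold the same TGACG site and the same CCAAT site. These genes therefore do not count as independent of each other. The windows of Psmb9, Tap1 and B2m lay wholly in a region, that of Ctsl with 215 of 300 bases, and those of Psmb8, Psmb10 and Psmb11 with 0.

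The proteases Prss16 and Ctsl had the widest promoter regions of the 10 genes. That of Prss16, on chromosome 13 from 22005980 to 22007264, was 1285 bases wide, wider than 98.1% of all promoter regions. It lay inside the gene, across exons, UTR and coding sequence. Its centre was 210 bases before the internal start at 22006412, while the upstream start at 22009741 was 2477 bases from its edge. The 250 bases before the internal start held the Sp motif GGGCGG at both sites in capitals, and no interferon element and no match of TGACG, of STAT or of CCAAT. A match of the KLF motif GGGNGTGG, from 22006477 to 22006484, also lay in this stretch and is not in capitals.

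Prss16, internal start, chr13:22006413-22006662, minus strand: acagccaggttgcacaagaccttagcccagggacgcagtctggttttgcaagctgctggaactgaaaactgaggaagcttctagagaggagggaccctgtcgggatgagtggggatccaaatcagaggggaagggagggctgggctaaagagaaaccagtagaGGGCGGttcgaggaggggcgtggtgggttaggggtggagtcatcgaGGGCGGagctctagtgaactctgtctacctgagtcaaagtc

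A region of 450 bases upstream of Prss16, from 22015607 to 22016056 in an intron of Gm11290, carried the GAAAGCGAAA element. Its centre was 6090 bases before the upstream start.

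The promoter region of Ctsl, on the same chromosome from 64369847 to 64370685, was 839 bases wide, wider than 85.1% of promoter regions, and was centred 40 bases past the start at 64370306. The other basic start was 205 bases from its edge. It held 4 Sp matches, 2 of TGACG and 1 of CCAAT, and no interferon element. In annotated UTR sequence a match of CCAAT shared its last base with a match of TGACG. Sp matches followed directly without overlap, as the capitals show.

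Ctsl, chr13:64370363-64370392, minus strand: ggcatagCCAATGACGGGGCGGGGGCGGgc

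The remaining regions of Ctsl were narrow, 83 bases in an intron and 159 bases in the 3' flank, and in both the ratio of observed to expected CpG was 0.

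Across the set, the 6 promoter regions of the 10 genes were 394 to 1285 bases wide, with a median of 652.5 bases. All promoter regions had a median of 482 bases (quartiles 277 and 703). Tap1, Nlrc5, B2m, Prss16 and Ctsl lay above this median and Psmb8 below it. The 17 regions at no promoter were 75 to 860 bases wide with a median of 142 bases, where all such regions had a median of 176 bases (quartiles 108 and 308). The other 4 regions were at promoters of other genes only, those of Psmb5, Gm20496, Gm15821 and Cpne2, and were 169 to 600 bases wide.

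**Figure D3:**
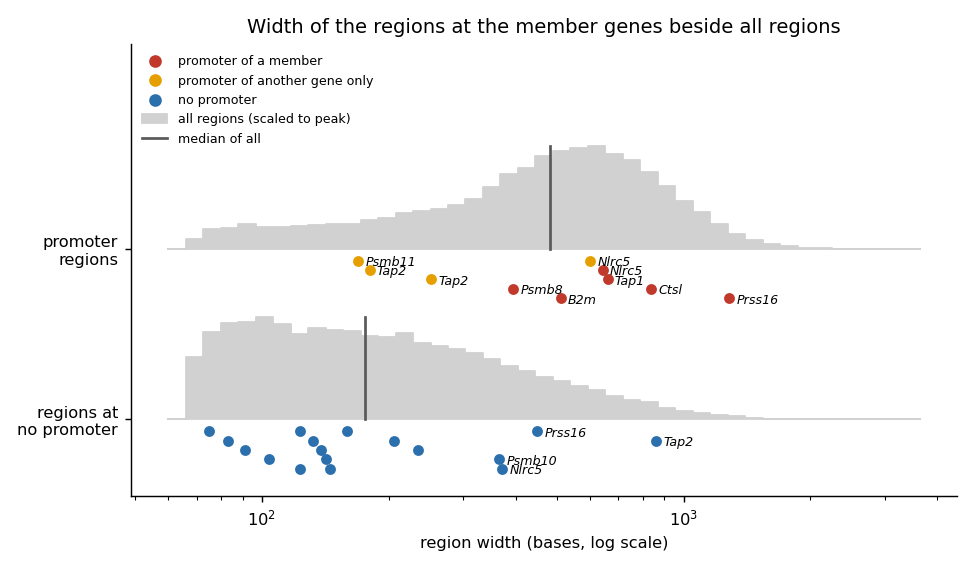
Width in bases (log scale) of the 27 regions (points) below the distribution of all regions of the same kind (grey, each scaled to its own peak, with the median as a line), with points named by the gene whose locus they lie in. The promoter regions of the 10 genes lie between 394 bases (Psmb8) and 1285 bases (Prss16), and the widest region at no promoter is the 860 bases downstream of Tap2.

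The GC content of the 6 promoter regions was between 53.8% (B2m) and 62.5% (Prss16). All 6 were below 64.6%, the median over promoter regions. Their ratio of observed to expected CpG, which is high in CpG islands, was between 0.545 (Nlrc5) and 0.737 (Ctsl), again below the median of 0.768 in each. In the regions at no promoter it had a median of 0.291, and among the intronic regions of Nlrc5 it was 0.124 to 0.284. The largest value of the 27 was 0.995, in the Psmb5 promoter region.

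**Figure D4:**
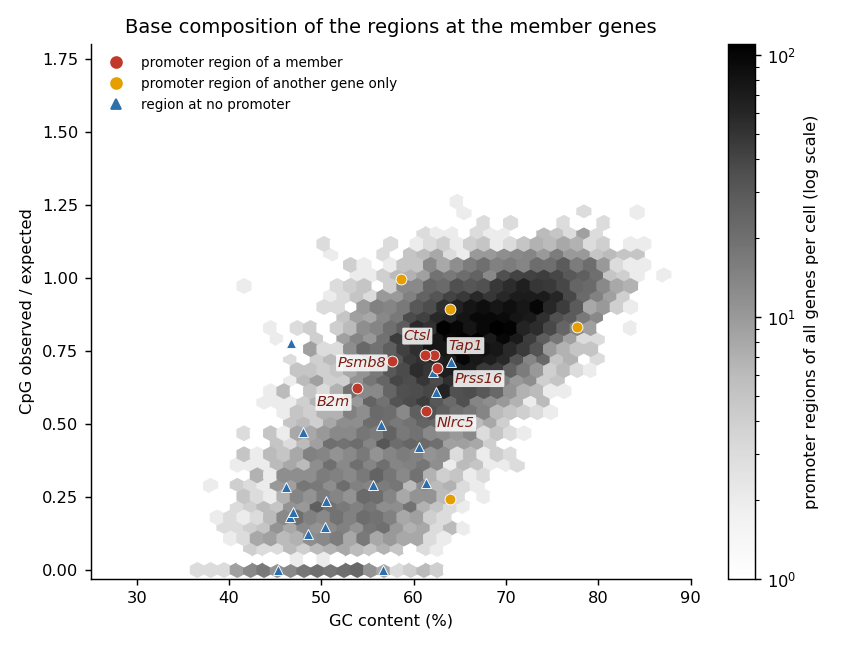
GC content (percent) and the ratio of observed to expected CpG of the 27 regions (coloured points) over all promoter regions (grey cells, darker for more regions, log scale). The 6 promoter regions of the 10 genes, named, lie between 53.8% and 62.5% GC and between 0.545 and 0.737, below the medians of all promoter regions on both axes.

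By the position of their centre, 10 of the 27 regions were at a promoter of any gene (37.0%, against 21.9% of all regions), 3 in other exons (11.1% against 8.36%), 11 in introns (40.7% against 40.2%) and 3 between genes (11.1% against 29.6%). The loci of Psmb8, Tap1 and Tap2 overlapped 5 regions each, those of Psmb9, Psmb10, Prss16 and Ctsl 3 each, and that of B2m 2. The rule selects sequence near genes, so that a smaller share between genes follows from it.

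Of the other motifs, TGACG was in 11 of the 27 regions (40.7%, against 21.8% of all regions) and in all 6 promoter regions (42.5% of all promoter regions). Most of these 6 were wider than the median promoter region, and the share of TGACG by width was not worked out. The only match at Nlrc5 was at position -481 from its first start, and those at Prss16 were at -571 and -846 from its internal start. In the RefSeq windows of equal length 3 of 7 genes had TGACG, with Psmb9 and Tap1 at the same site. CCAAT was in 7 regions (25.9% against 27.4%), STAT in 3 (11.1% against 7.46%), the KLF motif GGGNGTGG in 5 (18.5% against 16.5%), ETS in 1 (3.70% against 7.09%) and Sp in 10 (37.0% against 28.2%). The 27 regions hold a larger share of promoter regions than all regions do, so these shares are not set against like regions. Within the 6 promoter regions Sp was in 5, against 71.7% of all promoter regions, and CCAAT in 4, against 42.6%. STAT was in 1 of the 6 (8.41%), KLF in 1 (32.4%) and ETS in 0 (20.7%). For NF-kB the 9-letter pattern GGGNNTTCC, which is 1 spacer base short of the kappa-B consensus, was in 0 of the 27, with 12.0% over all regions. The full kappa-B consensus, searched after the data were seen, was in 5 of the 27 (18.5% against 19.0% of all regions). These were the promoter regions of B2m, Prss16 and Ctsl, the region downstream of Tap2 and the Cpne2 promoter region. A TGACG match can overlap CCAAT, as at Ctsl, and both strands were searched for every motif.

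Of 24 other genes of the pathway and its regulators, 17 had a promoter region by the centre rule and 21 had a start inside a region. The shares over all protein-coding genes were 48.6% and 56.4%. Among the 17 were H2-K1 and H2-Q4 of the heavy chains, Tapbp, Calr, Canx and Erap1 of the loading complex and peptide trimming, the proteasome activator genes Psme1 and Psme2, the regulators Irf1, Irf2, Rfx5, Rfxap and Rfxank, and the lysosomal protease genes Ctsd, Ctsz and Lgmn. Psme2 had the widest promoter region, 1118 bases, and Erap1, which trims peptides in the endoplasmic reticulum, had the narrowest, 74 bases. That region of Erap1 was centred at position -493 and covers no start, while a start of Erap1 lay inside another region. In 5 of the 17 genes, Tapbp, Psme1, Psme2, Irf2 and Rfx5, the promoter region held the interferon element, which 3.94% of all promoter regions held. It was also in the regions of Tapbpl and H2-T23 whose centres lay outside the promoter window.

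For Tapbpl, Pdia3, Psme3 and Ctsb the start was inside a region whose centre lay 142 to 228 bases past it. For H2-D1 a region of 592 bases was centred 328 bases past the start, and for H2-T23 a region of 360 bases was centred 186 bases past it. Ctss, the cathepsin of antigen-presenting cells that trims the invariant chain, was the only 1 of the 24 without a region within 1000 bases of a start, and its nearest region was centred 14621 bases away.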

How the data were processed

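ATAC-seq reads of mTECs had been aligned by the authors to mm10 with Bowtie2 and filtered for mitochondrial, multimapping, low-quality and duplicate reads. Broad peaks were called with MACS2 and merged with bedtools, and featureCounts 2.0.3 gave the reads in each merged region. The sources used here do not say whether peak calling was per sample or pooled. Of the deposited table, only the position and width of each region, as the authors gave them, were used. The 8 count columns match no label and were not used in any step, so the planned tests of counts between the groups, normalized counts and depth are not given. Removal of multimapping reads can hide regions in repeated sequence, and merging can widen regions or join neighbours.

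Regions were annotated with GENCODE M21 (basic set unless stated), on the GRCm38 sequence of RefSeq, and 0 regions lay past a chromosome end. Motif and promoter functions were tested on simulated data. The genes, gene lists and motifs were chosen with earlier results of these data known, and all 10 genes and the listed pathway genes are named, except 1 that is not reported here. The motifs and gene lists do not come from the counts. Regions and genes are not replicates, so no p-values are given. Python 3.11.15, numpy 2.4.6 and matplotlib 3.10.9 were used.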

Additional observations from a re-analysis of the deposited data

How the results depend on the processing

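No paired analysis was possible because no per-sample value was used: the names of the count columns match no label, and for the same reason the alternatives for the count comparisons (other tests, filters, the replicate number, leaving out samples) were not run. The count of 3 promoter regions with the interferon element became 1 of the 10 genes in fixed windows around RefSeq starts, where 3 genes have no entry, and 6 with 1 mismatch allowed, when 29.6% of all promoter regions matched as well. The count of 0 regions with the 9-letter NF-kB pattern became 5 with the full kappa-B consensus, an alternative added after the data were seen. The other 11 alternatives, 2 of which were likewise added, stayed within 1.5 times. The 27 regions were 21 with flanks of 5 kb and 38 with 20 kb. The 6 genes with a promoter region were 9 with any overlap within 1000 bases of a start, 9 with the comprehensive annotation, 6 with regions of at least 200 bases and 7 when the region had to cover a start. Of these alternatives, only the last has its share over all protein-coding genes given here. The 17 other pathway genes ranged from 16 to 23, and the median width of 652.5 bases became 511 with any overlap. The widths depend on peak calling and merging, and the depth behind each region is not analysed here.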

Other observations

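At the edge of the 10 kb flanks, the outermost region counted was 159 bases wide and lay 9591 bases from the Ctsl gene body, and the next was the region of 91 bases 8618 bases beyond B2m, in introns of Patl2 and Trim69. The nearest regions left out lay 10976 bases from Psmb9 (96 bases wide) and 11320 bases from B2m (177 bases wide). A wider region of 761 bases lay 11616 bases from the Psmb11 gene body, outside the flank.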
